A study of Caenorhabditis elegans with 4 samples.

Results

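Of the 7512 peaks in the series-wide NURF-1 peak list, 1374 lie on chromosome IV of Caenorhabditis elegans, and these are described here. They were taken from the list by the name of their chromosome, whatever their score. The peaks come from chromatin immunoprecipitation followed by sequencing (ChIP-seq) of whole L3 larvae. The worms were wild-type N2 animals of both sexes, grown at 20 degrees Celsius. A rabbit polyclonal antibody against NURF-1 (SDQ3525) was used for 2 ChIP samples, and 2 samples were input DNA. Whole animals were used, so the tissue or tissues behind a peak are not known. Nothing in the labels says that the replicates were separate cultures. The analysis used 3 lists, a series-wide one and one per ChIP replicate. They hold no read counts, so the depth is unknown. Values of the input samples were not analysed here.

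NURF-1 is the worm counterpart of BPTF, the large scaffold subunit of the nucleosome remodelling factor NURF. NURF slides nucleosomes with an ISWI ATPase, and BPTF reads histone marks found at active promoters. Worm autosomes have a gene-dense centre in which crossovers are rare, flanked by arms richer in repeats and in methylated H3K9, where most crossovers fall. Chromosome IV also carries most loci of the 21U-RNAs, the piRNAs of the worm, which guide silencing of foreign sequence in the germ line and lie in a pair of broad stretches of this chromosome.

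In what follows the left arm is the first 25% of the chromosome, the centre the middle 50% and the right arm the last 25%, by peak midpoint. On WormBase WS220 coordinates, chromosome IV was taken to end at base 17493793, the last base under a peak in any list. The left arm then ends at 4373448 and the right arm starts at 13120345. A peak is called higher-scored where its deposited score exceeds the median of the list it is in, over all chromosomes, and otherwise lower-scored. Shares of peaks carry exact 95% binomial intervals, which cover counting error only, since neighbouring peaks are not independent. The lists come from a single group of ChIP samples, so differences within IV or between chromosomes were not tested. Values from the replicate lists are given beside many of them, and those without one describe the series-wide list only.

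Chromosome IV carried NURF-1 peaks at a density close to that of the other autosomes combined. It held 1374 peaks in the series-wide list, 1164 in replicate 1 and 937 in replicate 2. In the series-wide list this was 78.5 peaks per Mb on IV, against 82.0 on I, II, III and V combined, a ratio of 0.958. The ratio was 0.959 in replicate 1's list (66.5 on IV against 69.4) and 0.901 in replicate 2's (53.6 against 59.5). The other autosomes differed far more among themselves: they held 55.9 (V), 75.2 (II), 104 (I) and 105 (III) peaks per Mb in the series-wide list. Peaks covered 3.72% of IV, and between 2.71% (V) and 5.33% (I) of the other autosomes.

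The peaks of IV were spread unevenly, with the left arm holding the most peaks per Mb of the 3 stretches in the series-wide list. The left arm held 421 series-wide peaks, the centre 649 and the right arm 304. Densities were 96.3 peaks per Mb in the left arm, 74.2 in the centre and 69.5 in the right arm. In replicate 1 the left arm had 75.5 and the centre 64.5, but in replicate 2 they were nearly level, at 57.4 and 56.9. Peaks covered 3.95% of the left arm and 3.94% of the centre in the series-wide list. In the replicate lists they covered less of the left arm than of the centre. The values were 3.05% and 3.13% in replicate 1 and 2.30% and 2.65% in replicate 2. The right arm had 0.722 times the density of the left arm in the series-wide list, 0.818 times in that of replicate 1 and 0.749 times in that of replicate 2, so it was the lower of the pair in all 3 lists. On the other autosomes this ratio took both directions in the series-wide list: 0.742 on I, 0.924 on V, 1.46 on III and 1.89 on II.

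Whether the centre of IV was denser than its arms depended on the list. The series-wide density was 74.2 peaks per Mb in the centre and 82.9 in both arms together, a ratio of 0.895. Replicate 1 gave 64.5 in the centre and 68.6 in the arms (0.940), and replicate 2 gave 56.9 in the centre and 50.2 in the arms (1.13). In each of the 3 lists the ratio of IV was nevertheless below that of every other autosome. The others had 1.06 (I) to 1.31 (V) in the series-wide list, 1.10 (I) to 1.34 (V) in replicate 1's and 1.23 (I) to 1.53 (V) in replicate 2's.

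**Figure D1:**
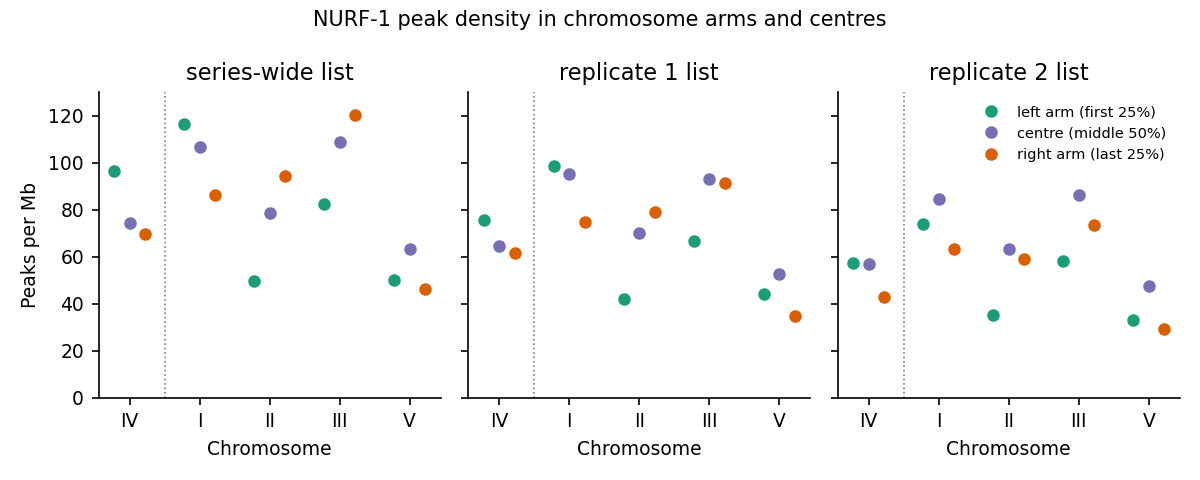
NURF-1 peaks per Mb (y axis) in the left arm, centre and right arm of chromosome IV and of the other autosomes (x axis), with a panel for each peak list. Each point is 1 stretch of 1 chromosome. In the series-wide panel IV runs from 96.3 in its left arm to 69.5 in its right arm, and the left arms of II and V (49.7 and 50.3) lie well below that of IV.

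Score separated the stretches of IV in another way. Of the 1374 peaks, 670 (48.8%) were higher-scored, against a background of 50.4% on I, II, III and V. The share was 43.0% in the left arm, 55.6% in the centre and 42.1% in the right arm. The other autosomes had 40.4% (I) to 48.9% (II) in their left arms and 52.1% (V) to 58.7% (III) in their centres. Their right arms had 36.2% (V) to 50.2% (I), and the centre had the largest share on each of them too. On IV, higher-scored peaks were as dense in the left arm, with 41.4 per Mb, as in the centre, with 41.3, and sparser in the right arm, with 29.3. Lower-scored peaks numbered 54.9 per Mb in the left arm, 32.9 in the centre and 40.2 in the right arm. In the replicate lists higher-scored peaks were sparser in the left arm than in the centre, with 32.5 and 35.7 per Mb in replicate 1 and 26.5 and 30.8 in replicate 2. The excess of lower-scored peaks in the left arm over the centre was present in both, with 43.0 and 28.8 per Mb in replicate 1 and 30.9 and 26.2 in replicate 2. For higher-scored peaks alone, the centre of IV had 1.17 times the density of its arms in the series-wide list, 1.30 times in replicate 1's and 1.39 times in replicate 2's. The other autosomes had 1.37 (II) to 1.66 (V), 1.43 (I) to 1.68 (V) and 1.51 (II) to 1.85 (V) in the same lists.

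The highest-scored 10% of the whole list held 132 peaks of IV, or 9.61% of its peaks, against 10.9% of those of I, II, III and V. In replicate 1 the shares were 10.1% on IV and 10.9% elsewhere, and in replicate 2 the order was the other way, with 10.9% on IV and 10.4% elsewhere. In the series-wide list they made up 7.13% of left-arm peaks (30 peaks), 12.02% of central peaks (78) and 7.89% of right-arm peaks (24). The centres of the other autosomes had 11.1% (V) to 16.0% (II), and their arms 4.94% to 9.82%. The centre of IV had the largest share in the replicate lists too, but by less in replicate 2, with 9.96% in the left arm, 11.6% in the centre and 10.1% in the right arm.

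Along IV, stretches of the same size held very different numbers of peaks. In 34 full bins of 500 kb there were 39.1 ± 12.9 series-wide peaks (SD over bins), with a lowest count of 23 and a highest of 74. Replicate 1 had 33.1 ± 9.85 and replicate 2 had 26.6 ± 10.1 per bin. The bin counts of the replicates went together, with a Pearson's r of 0.89 and a Spearman's rank correlation of 0.88 over the 34 bins, which share the peak caller and the sequence underneath. The coefficient of variation of the series-wide bin counts was 33.0% on IV, against 20.6% (III) to 31.0% (II) on the other autosomes. In replicate 1 it was 29.8% on IV and 30.9% on II, and in replicate 2 it was 38.1% on IV and 34.5% on V, the highest of the others, so IV did not vary most in every list.

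Of the 162 autosomal bins in the series-wide list, the one with the most peaks and the one with the most higher-scored peaks both lay on IV. The bin from 2.5 to 3 Mb, in the left arm, held 74 series-wide peaks, the highest count of any of them. Replicate 1 had 61 peaks there, a count that a bin of I equalled, and replicate 2 had 44, fewer than the 56 of the fullest bin of I. Of the 74 peaks, 32 were higher-scored and 42 lower-scored, and 36 (48.6%) were found in both replicates. By its higher-scored peaks alone this bin ranked 15 among the 162.

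The bin from 11 to 11.5 Mb, in the centre, was crowded with higher-scored sites. It held 47 higher-scored peaks out of 60, more than any other autosomal bin of the series-wide list. In replicate 1 it held 36 higher-scored peaks, as did a bin of III, and in replicate 2 it held 33, against 34 in a bin of I. Of the 60, 48 were found in both replicates, and 13 were at least 1000 bp wide. Replicate 1 had 57 peaks in this bin and replicate 2 had 60, although over all of IV replicate 2 had 80.5% as many peaks as replicate 1. Peaks covered 8.02% of the bin. Scores ran from 3.39 to 193 with a median of 27.7, and 8 peaks were in the highest-scored 10% of the whole list, so most of its higher-scored peaks lay below that level. Even here the longest gap was 86370 bp.

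The sparsest bins lay in the centre and in the right arm. The bin from 5.5 to 6 Mb had 23 series-wide peaks, the lowest count on IV, of which 12 were higher-scored. In the right arm the bin from 16 to 16.5 Mb had 25 peaks, of which 8 were higher-scored, the fewest of any bin on IV. Replicate 1 had 19 and 22 peaks in these 2 bins, and replicate 2 had 15 and 12.

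**Figure D2:**
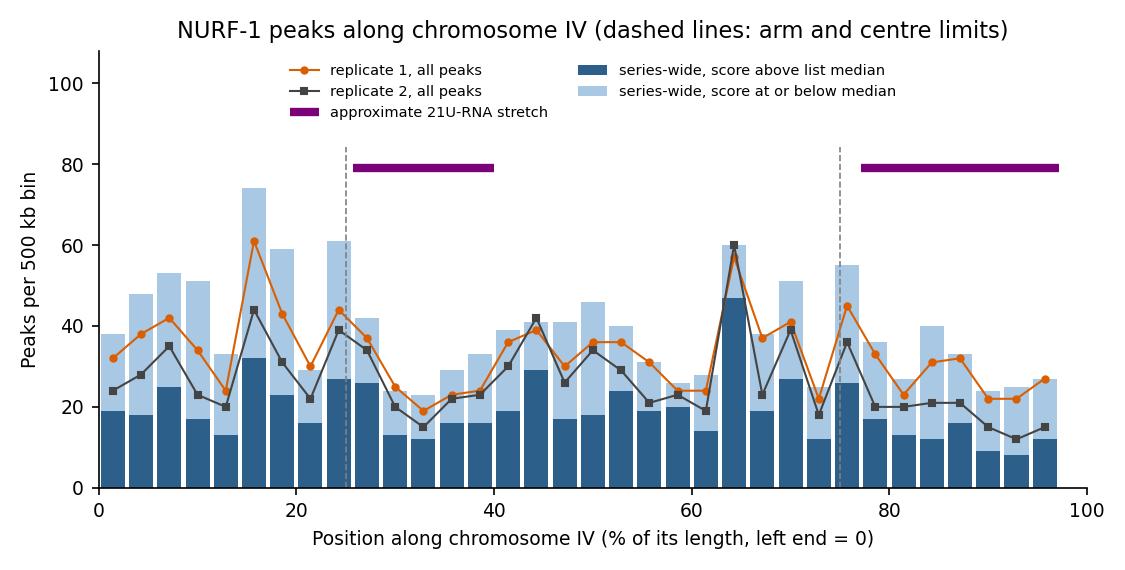
NURF-1 peaks in each full 500 kb bin (y axis) against position along chromosome IV as a percentage of its length (x axis). Stacked bars give higher-scored (dark) and lower-scored (light) series-wide peaks, lines the totals of the replicate lists, and bars at the top the approximate 21U-RNA stretches. The tallest bar (74 peaks) is in the left arm, and the tallest dark bar (47 peaks) is in the centre, where both replicates reach 57 and 60.

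At a scale of 100 kb, the 5 fullest windows of IV all lay in its left arm or in the adjoining part of the centre. The window from 2.6 to 2.7 Mb held 31 series-wide peaks, 23 of replicate 1 and 15 of replicate 2. Of its 31 peaks, 13 were in both replicates, 12 in 1 replicate alone and 6 in neither, and the median score was 7.99. The next was the window from 4.7 to 4.8 Mb, with 23 series-wide, 20 replicate 1 and 19 replicate 2 peaks. This second window was of another kind: 17 of its 23 peaks were in both replicates, 15 were higher-scored, and the median score was 39.7. It contains the second and the third of the highest-scored peaks of the chromosome.

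The windows from 4.4 to 4.5 Mb (22 peaks), 3.3 to 3.4 Mb (21) and 2.7 to 2.8 Mb (20) followed. The window from 2.6 to 2.7 Mb was also the fullest of IV in replicate 1's list, and that from 4.7 to 4.8 Mb in replicate 2's. Across all 174 windows of IV the count had a mean of 7.87 ± 5.07 (SD over windows) and a variance 3.26 times its mean. On the other autosomes the variance was 1.94 (III) to 2.54 (I) times the mean. Replicate 1's list gave 2.59 on IV and 1.76 to 2.26 on the others, and replicate 2's list 2.52 on IV and 1.77 to 2.33 on the others. By the standard deviation over the mean instead, IV and V were level in the series-wide list at 64.4% and 64.3%. In the replicate lists IV was then below V, with 62.3% on IV and 70.1% on V in replicate 1 and 68.5% on IV and 76.8% on V in replicate 2.

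Crowding reached down to runs of peaks lying less than 2000 bp apart. The 1374 peaks of IV formed 895 runs, of which 631 were single peaks. Runs of 5 or more peaks numbered 30 and took in 173 peaks, or 12.6% of the peaks of IV, against 7.66% (II) to 9.32% (III) of the peaks of the other autosomes. The replicate lists did not share this order: such runs held 4.73% of the peaks of IV in replicate 1, against 4.16% (I) to 8.03% (II) elsewhere, and 4.70% in replicate 2, against 4.60% (I) to 9.44% (V) elsewhere. The share in such runs was 15.2% in the left arm, 10.2% in the centre and 14.1% in the right arm. Peaks standing alone were 45.6% of left-arm peaks, 49.8% of central peaks and 38.2% of right-arm peaks.

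The longest runs had 10 peaks each and few higher-scored ones, 2 in the first and 1 in the second. The longest runs of the other autosomes had 10 (III) to 17 (II) peaks. The first on IV spanned 10109 bp of the left arm at 2703807 to 2713915. Its scores ran from 3.81 to 71.1 with a median of 8.04, its peaks covered 35.4% of the span, and 3 of the 10 were in both replicates. The second spanned 8997 bp at the middle of the chromosome, at 8572656 to 8581652. Its peaks were wider, with a median of 620.5 bp, and covered 74.6% of the span, while no score exceeded 16.5.

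The replicates divided this second run differently. Replicate 2 had 10 peaks in it and replicate 1 had 5, the reverse of the order of the replicates over the chromosome. Of the 10 series-wide peaks, 5 were in both replicates, 4 in 1 replicate alone and 1 in neither. In the left-arm run, replicate 1 had 7 peaks and replicate 2 had 4.

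Spacing on IV was strongly skewed. The median gap between neighbouring series-wide peaks of IV was 4630 bp and the mean gap 12268 bp, a ratio of 0.377. The other autosomes were skewed too, with ratios of 0.368 (V) to 0.475 (III), and their median gap together was 4746 bp. Within IV, medians were 3509 bp in the left arm, 6195 bp in the centre and 3168 bp in the right arm. Means ran in another order, with 9973 bp in the left arm, 12934 bp in the centre and 13884 bp in the right arm. Gaps under 2000 bp made up 40.3% of those in the right arm, 36.2% in the left arm and 31.6% in the centre. The long mean gap of the right arm was seen in both replicate lists, with 15736 bp in replicate 1 and 22808 bp in replicate 2, the largest of the 3 stretches. Its short median gap was not: replicate 1 gave 4069 bp in the right arm and 5044 bp in the left arm, and replicate 2 gave 6716 bp in the right arm and 6692 bp in the left arm. In replicate 2 gaps under 2000 bp made up 28.8% in the left arm, 27.6% in the centre and 27.8% in the right arm.

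Long empty stretches took up about as much of the right arm as everything else in it. Gaps of 50 kb or more covered 50.5% of the right arm, 21.8% of the left arm and 24.6% of the centre. In replicate 1's list these shares were 53.4%, 35.1% and 31.4% for the right arm, left arm and centre, and in replicate 2's 62.7%, 43.2% and 38.0%. The right arm of IV was thus the emptiest of its stretches in each list. It was not alone in this: the series-wide share was 53.7% in the right arm of V, 43.9% in the left arm of II and 42.7% in the left arm of V. Over all of IV, 73 such gaps covered 30.4% of the chromosome, against 24.7% of I, II, III and V together, with 11.6% on III and 39.0% on V as the extremes.

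**Figure D3:**
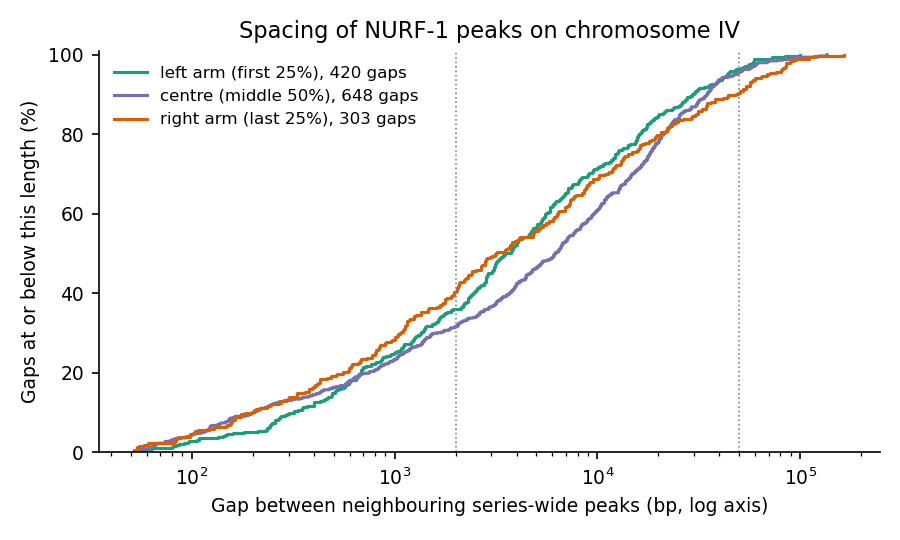
Cumulative share of gaps (y axis, %) at or below a given length (x axis, bp, log scale) between neighbouring series-wide peaks in the left arm, centre and right arm of IV. Dotted lines mark 2000 bp and 50 kb. The right-arm curve is the highest at 2000 bp (40.3%) and the lowest at 50 kb, so in this list short and long gaps are both frequent there.

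The longest stretch of IV without a series-wide peak measured 165038 bp, in the right arm at 16224166 to 16389203. Replicate 1 had 1 peak inside it and replicate 2 had 0. The next were in the centre, at 4927422 to 5063357 (135936 bp), 4514411 to 4650257 (135847 bp), 11696043 to 11820225 (124183 bp) and 10562110 to 10684197 (122088 bp). These 4 held 0, 1, 1 and 0 replicate 1 peaks in that order, and no replicate 2 peak. The stretch at 4514411 is bordered by high scores: it lies between a peak scored 106 and a peak scored 137, both found in both replicates. Each of the other 4 is bordered on at least 1 side by a peak that neither replicate or only 1 replicate had.

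The stretches of IV that hold most 21U-RNA loci had fewer peaks than the rest of the chromosome. Approximate windows were set by hand from general knowledge of where these loci lie, from 25.7% to 40.0% and from 77.2% to 97.2% of the chromosome's length. They rest on no annotation of the build of the peaks. Together they held 363 series-wide peaks, or 60.5 per Mb, against 88.0 per Mb in the rest of IV, a ratio of 0.688. The left window had 60.4 and the right window 60.6 peaks per Mb. Replicate 1 gave a ratio of 0.720 and replicate 2 one of 0.652, and it was 0.651 for higher-scored series-wide peaks, so it lay below 1 in every list.

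What filled these windows differed from one to the other. In the left window 55.0% of 151 peaks were higher-scored and 61.6% were in both replicates. In the right window 41.0% of 212 peaks were higher-scored and 50.0% were in both. The same shares were 55.6% and 62.6% in the whole centre and 42.1% and 52.6% in the whole right arm. Each window is part of the stretch it is set beside, so some closeness of these shares was built in. The left window, with 60.4 peaks per Mb, lies in the centre, which had 74.2 as a whole. The right window, with 60.6, lies in the right arm, which had 69.5 as a whole. The 21U-RNA loci and other properties of the same places cannot be told apart, and the cause of the lower density was not tested. Of the 73 gaps of 50 kb or more on IV, 38 (52.1%) were centred in the windows, which take up 34.3% of the chromosome, as were 7 of the 10 longest. Windows at the same relative positions gave ratios of 0.803 on I, 0.947 on V, 1.18 on III and 1.23 on II. The individual loci were not compared with peaks.

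Peaks of IV were mostly narrow, with a wider median in the centre than in the arms. Their median width was 355.5 bp, against 391 bp on I, II, III and V together, with an interquartile range on IV of 219 to 655 bp. In the replicate lists the medians were 340.5 bp on IV against 382 bp (replicate 1) and 360 bp against 366 bp (replicate 2). Within IV, median widths were 293 bp in the left arm, 453 bp in the centre and 305 bp in the right arm. Replicate 1 gave 293.5, 419 and 282.5 bp and replicate 2 gave 322, 419.5 and 288 bp for the same stretches, so the centre had the widest peaks in each list. The medians of the other centres were 395.5 bp (V) to 482 bp (II), and those of the other arms 296.5 to 371 bp.

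Peaks at least 1000 bp wide numbered 104 on IV, or 7.57% of its peaks, against 7.44% (V) to 9.05% (II) on the other autosomes. On IV they made up 4.99% of left-arm, 10.3% of central and 5.26% of right-arm peaks. The other centres had 7.83% (V) to 10.0% (II), and the other arms 6.28% to 10.2%. For the stretches of IV in the same order the shares were 5.15%, 6.74% and 3.70% in replicate 1. In replicate 2 they hardly differed, at 3.59%, 3.82% and 3.72%. Width followed score, with a Spearman's rank correlation of 0.79 across the 1374 peaks and of 0.76 to 0.80 on the other autosomes. The median width on IV was 639 bp for higher-scored and 230 bp for lower-scored peaks.

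Most peaks of IV were found in both replicates. Of 1374 series-wide peaks, 777 (56.6%, interval 53.9 to 59.2) overlapped a peak of both by at least 1 bp, beside a background of 58.5% on I, II, III and V. A further 289 (21.03%, 18.9 to 23.3) overlapped replicate 1 alone, with 19.3% as background. Replicate 2 alone had 83 (6.04%, 4.84 to 7.43), with 7.12% as background, and neither replicate had 225 (16.4%, 14.5 to 18.4), with 15.1% as background. The shares of IV were close to the background in all 4 classes. Single chromosomes ranged from 55.7% (V) to 60.3% (I) for both replicates and from 13.1% (I) to 17.8% (III) for neither.

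The share of IV peaks in both replicates was larger in the centre than in the arms, as on I, II, III and V together. Peaks in both replicates made up 50.1% of left-arm peaks (45.2 to 55.0), 62.6% of central peaks (58.7 to 66.3) and 52.6% of right-arm peaks (46.9 to 58.4). Which arm had the larger share turned on the overlap asked for: with at least 200 bp, the right arm minus the left arm was -1.53 percentage points. Peaks narrower than 200 bp cannot reach that overlap. On I, II, III and V together the share, with at least 1 bp, was 52.0% in left arms, 64.0% in centres and 52.5% in right arms. Their centres ranged from 60.4% (V) to 65.5% (I). Peaks in neither replicate made up 21.4% of left-arm peaks (17.6 to 25.6), 12.9% of central peaks (10.5 to 15.8) and 16.8% of right-arm peaks (12.8 to 21.5). On the other autosomes, neither replicate had 12.9% (V) to 19.4% (III) of left-arm peaks and 15.1% (I) to 25.8% (III) of right-arm peaks.

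**Figure D4:**
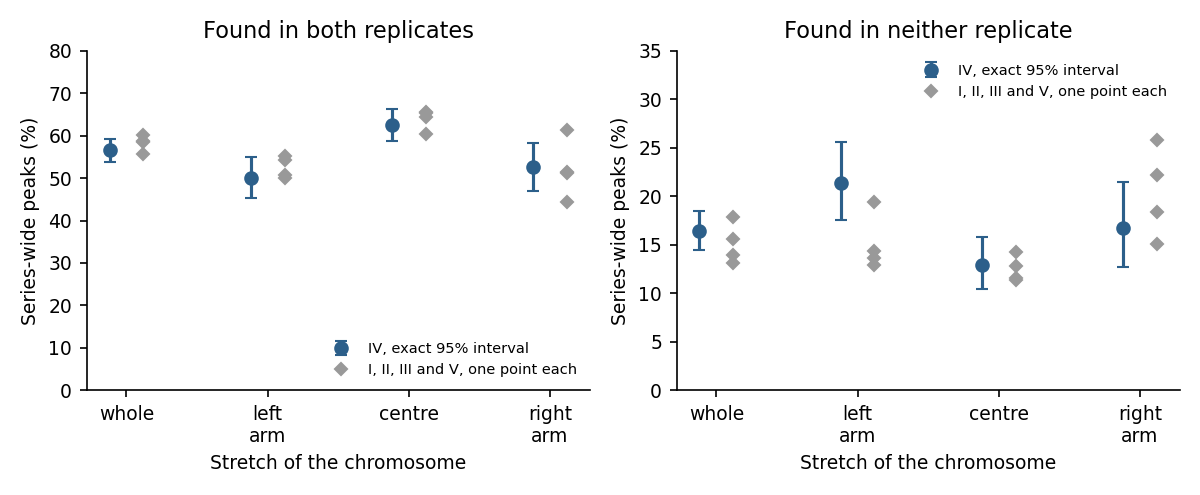
Share of series-wide peaks (y axis, %) found in both replicates (left panel) and in neither (right panel), for whole chromosomes and their stretches (x axis). Circles with exact 95% intervals are IV, diamonds the other autosomes. Within IV, the centre has the highest share in both (62.6%) and the left arm the highest share in neither (21.4%).

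Support on IV went with score. Of the 670 higher-scored peaks of IV, 649 (96.9%, 95.2 to 98.0) were in both replicates and 0 in neither, which allows a share of up to 0.448%, taken as 3 counts of the total. On I, II, III and V 97.2% of higher-scored peaks were in both. How the series-wide list was made is not stated, and it describes the same ChIP samples, so the lists are not independent. Of the 704 lower-scored peaks, 128 (18.2%) were in both and 225 (32.0%, 28.5 to 35.5) in neither, close to the 19.1% and 30.4% of the other autosomes. The median peak in both replicates scored 38.7 and was 593 bp wide. The median peak in neither scored 3.95 and was 181 bp wide, and none of this class scored above 9.86.

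Within the lower-scored class, too, the left arm of IV had the largest share of peaks without support. Neither replicate had 90 of its 240 lower-scored peaks (37.5%, 31.4 to 44.0), 84 of 288 in the centre (29.2%, 24.0 to 34.8) and 51 of 176 in the right arm (29.0%, 22.4 to 36.3). The intervals of the 3 stretches overlap. The left arms of the other autosomes had 23.9% (V) to 33.5% (III) in this class, and the right arm of III had 45.1%. In the right arm of IV 93.8% (88.1 to 97.3) of higher-scored peaks were in both replicates, against 97.8% (94.4 to 99.4) in the left arm. These intervals overlap too. On I, II, III and V together the shares were 96.2% in right arms and 96.3% in left arms, and the right arm of V had 93.2%.

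**Figure D5:**
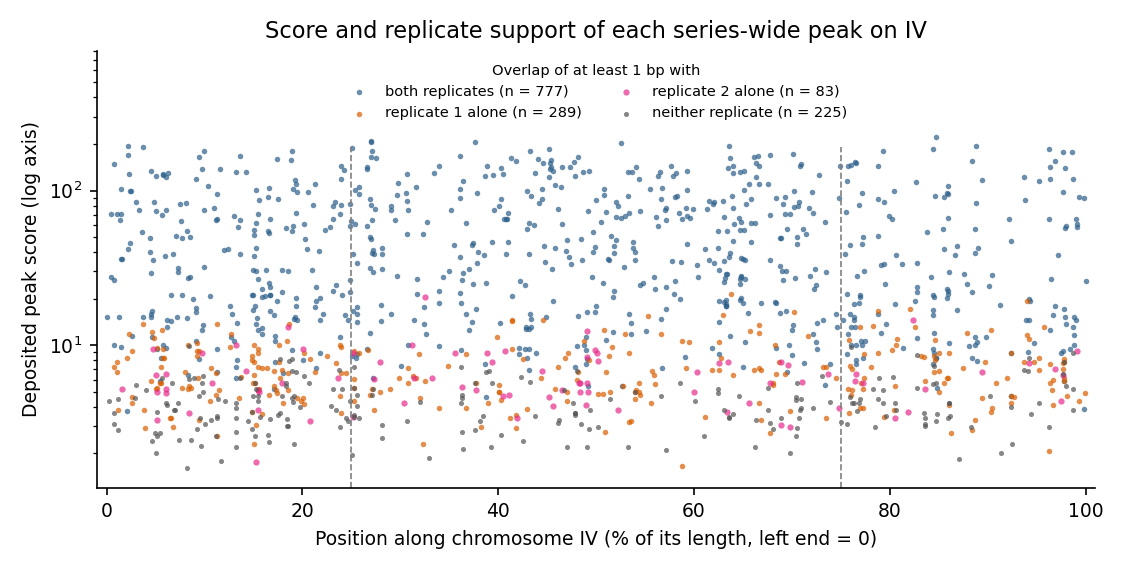
Deposited score (y axis, log scale) of each of the 1374 series-wide peaks against position along IV as a percentage of its length (x axis), with colour for replicate support. Dashed lines mark the limits of arms and centre. Peaks in neither replicate stay at or below a score of 9.86, and peaks in both fill the upper part of the plot in every stretch.

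The replicates were also compared with each other on IV. Of replicate 1's 1164 peaks, 802 (68.9%, 66.2 to 71.6) overlapped a peak of replicate 2, beside 72.3% on I, II, III and V. Of replicate 2's 937 peaks, 827 (88.3%, 86.0 to 90.3) overlapped a peak of replicate 1, beside 86.6% on the other autosomes. Replicate 2 had 80.5% as many peaks as replicate 1 on IV, against 84.2% (I) to 88.3% (III) elsewhere. The difference was larger in the arms: replicate 2 had 76.1% as many peaks in the left arm, 88.3% in the centre and 69.6% in the right arm. The other left arms had 75.2% (I) to 87.0% (III) and the other right arms 75.1% (II) to 84.5% (V). Their centres had 88.8% (I) to 92.7% (III).

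Accordingly, fewer of replicate 1's peaks were found again in the arms of IV. The share was 64.2% of 330 in the left arm, 75.9% of 564 in the centre and 60.0% of 270 in the right arm. On I, II, III and V together it was 64.6%, 77.2% and 68.3% for the same stretches, so the arms were lower there too. In the other direction the 3 stretches of IV were alike, with 87.3%, 88.2% and 89.9% of replicate 2's peaks found in replicate 1. In base pairs, the replicates shared 344578 bp of IV, which was 67.0% of what replicate 1 covered and 84.7% of what replicate 2 covered.

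Where both replicates had a peak on IV, they placed and ranked it much alike. Over 736 one-to-one pairs the midpoints differed by a median of 39.5 bp, and Spearman's rank correlation of the scores was 0.91, against 0.92 on each of the other autosomes. For the 217 pairs with a lower score in each list, the rank correlation was 0.24. These values are across peaks of the same pair of libraries and carry no test. In 66.6% of the pairs the peak was wider in replicate 1, with median widths of 471 bp in replicate 1 and 400 bp in replicate 2.

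The series-wide list kept nearly all replicate peaks of IV, though fewer of replicate 1's than elsewhere. It overlapped 1104 of replicate 1's 1164 peaks (94.8%, 93.4 to 96.0), beside 97.0% on I, II, III and V, where single chromosomes had 96.7% (II) to 97.5% (V). The 60 peaks left out scored at most 9.20. In the right arm 23 of 270 were left out and 91.5% (87.5 to 94.5) were kept. The right arms of I, II, III and V together kept 96.2%. The left arm and the centre of IV kept 94.8% and 96.5%, beside 96.2% and 97.7% on I, II, III and V together. Of replicate 2's 937 peaks, 920 (98.2%, 97.1 to 98.9) were kept, beside 98.0% elsewhere.

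The strongest NURF-1 sites of IV were found at the top of both replicate lists. No peak is assigned to a gene, because no gene annotation of build WS220 was used here. The highest-scored peak lay in the right arm at 14824354 to 14825767 (1414 bp), with a score of 221, rank 8 in the whole series-wide list. Replicate 1 scored it 244 (rank 11) and replicate 2 scored it 213 (rank 7). It stood between close neighbours, 1888 bp to its left and 1951 bp to its right.

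The second and the third were a pair in the left part of the centre, separated by 1756 bp. The peak at 4725305 to 4725986 scored 210.1, with ranks 15 and 5 in replicates 1 and 2. The peak at 4727743 to 4728288 scored 205, with ranks 19 and 24 in replicates 1 and 2. Both were narrow for their score, at 682 and 546 bp. After them came a gap of 16935 bp.

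Next were 2 central peaks that scored alike. The peak at 6585212 to 6586175 scored 205 (ranks 41 and 26 in replicates 1 and 2) and the peak at 9196031 to 9197160 scored 204 (ranks 40 and 10). Replicate 2 divided the peak at 9196031 into 2, and replicate 1 did not.

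The sixth peak, at 384805 to 386072 near the left end, showed the widest disagreement between replicates among the 10. It was the highest-scored IV peak of replicate 1 (score 246, rank 10 in that list) and the 11th on IV in replicate 2 (score 150, rank 63). The peak at 15530479 to 15530947 in the right arm scored 193 and was the narrowest of the 10, at 469 bp, with ranks 36 and 79 in replicates 1 and 2. The peak at 11118425 to 11119764 scored 193 and lies in the bin from 11 to 11.5 Mb. The list closed with the peaks at 654383 to 655334 (score 192) in the left arm and at 4390095 to 4390912 (score 188) just inside the centre.

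All 10 were found in both replicates, with ranks of 10 to 41 in replicate 1 and 5 to 79 in replicate 2. They ranked 8 to 49 in the series-wide list and were 469 to 1414 bp wide. The left arm held 2 of them, the centre 6 and the right arm 2. Since the 3 lists describe the same ChIP samples, the series-wide ranks are no independent check of the others.

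The 5 widest peaks of IV were other sites, with scores from 20.8 to 164. The widest, at 11070896 to 11073471, covered 2576 bp in the bin from 11 to 11.5 Mb and scored 29.0, rank 451 on IV. It was 2 peaks in replicate 1 and 3 in replicate 2. The second widest lay near the right end at 17277830 to 17280108 (2279 bp, score 119) and was 3 peaks in replicate 1 and 2 in replicate 2. The peak at 13502554 to 13504609 (2056 bp, score 97.1) was a single peak in both replicates.

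The remaining 2 of the 5 widest contrasted in strength. The peak at 8431497 to 8433526 (2030 bp) scored 164, rank 30 on IV, whereas the peak at 2828544 to 2830568 (2025 bp) scored 20.8, rank 527 on IV. Of the 1374 series-wide peaks of IV, 43 met 2 or more peaks of replicate 1 and 56 met 2 or more of replicate 2. None met more than 3 in either. The counts were 69 and 69 of 1568 on I and 53 and 59 of 1149 on II. They were 58 and 70 of 1448 on III and 36 and 51 of 1170 on V. The widest peaks of the other autosomes measured 4325 bp (II) to 11059 bp (I), so IV had no peak as broad as the broadest of any other autosome.

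Among the higher-scored peaks of IV, 18 (2.69%) were found in replicate 1 alone and 3 (0.448%) in replicate 2 alone. On I, II, III and V together these shares were 2.49% and 0.298%. The highest-scored peak seen in replicate 1 alone, at 11154375 to 11154729, scored 21.5, and the highest seen in replicate 2 alone, at 5691182 to 5691510, scored 20.4. The highest-scored peak in neither lay in the left arm at 1477504 to 1477667 and scored 9.86, rank 758 on IV. It was 164 bp wide.

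Both ends of IV carried a peak in every list. The first peak covered bases 1 to 221 and scored 15.4, rank 610 on IV, and the next peak to its right was 51120 bp away. The last covered 17493519 to 17493793 and scored 25.9, rank 480 on IV. The end of the chromosome was itself taken from this last base.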

How the data were processed

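ChIP-seq peak lists of 2 NURF-1 ChIP samples and of the series were analysed, without values of the 2 input samples. Per the file headers, positions are on build WormBase WS220, and the rows name MACS as the peak caller. Per the submitters' processing notes, BWA and ce10 were used. The sources used here give no versions, calling threshold, control or read filter, and do not say how the series-wide list was made. The authors deposited a score for each peak, on a scale that is not given. It served to rank and divide the peaks of a list, and for rank correlations between the replicates.

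Counts, widths, gaps and overlaps (at least 1 bp) were computed with Python 3.11.15, numpy 2.4.6, pandas 2.3.3 and scipy 1.17.1, plotted with matplotlib 3.10.9, and checked on simulated lists. Chromosome lengths are the last base under a peak in any list. Gaps were taken between neighbouring peaks of the same stretch. With a single group of ChIP samples no comparison was tested. Named regions are the 10 highest-scored and 5 widest peaks, the 5 longest gaps, the 5 fullest windows of 100 kb, the longest runs, the end peaks and the highest-scored peak of each stretch and support class. The 500 kb bins described singly were chosen after their values were seen. Chromosome IV, its division and the windows were chosen with earlier results of these data known. Alternatives were each replicate list alone, higher-scored peaks alone, stricter overlaps, wider arms, merged runs and shifted windows. No genome sequence of build WS220 was used here, so no sequence is shown.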

Additional observations from a re-analysis of the deposited data

How the results depend on the processing

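Of 38 recomputed values, 14 moved, 4 changed direction and 20 did neither. A value counted as moved when it changed by over the SD of the replicate lists, when the share in both replicates left its exact interval, or when the window count changed by over 1.5 times. The cause of these changes was not tested. The density of the centre of IV over its arms, 0.895 in the series-wide list, was 0.94 to 1.13 with a single replicate list and 1.17 for higher-scored peaks alone. The share of IV peaks in both replicates, 56.6%, was 47.7% with an overlap of at least 200 bp, 48.2% with at least 50% of the peak overlapped and 96.9% for higher-scored peaks alone. With support counted in 1 replicate only it was 62.6 to 77.6%. This share was 2.51 percentage points higher in the right arm than in the left arm of IV. The difference was -1.53 points with 200 bp and -3.12 points with 50% of the peak, and 1.56 to 5.55 points with 1 replicate. Its sign thus depends on the overlap asked for. Peaks of IV were as narrow as 146 bp, and those under 200 bp cannot reach an overlap of 200 bp. The share and the difference at 200 bp thus depend on peak width as well as on the replicates.

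With a single replicate list, the density of IV over the other autosomes was 0.901 to 0.959, right over left arm 0.749 to 0.818, and the 21U-RNA windows over the rest of IV 0.652 to 0.72. The median width was 340.5 to 360 bp, the median spacing 5860 to 7511.5 bp, the longest empty stretch 176434 to 231269 bp (247562 bp for higher-scored peaks alone) and the highest 100 kb count 19 to 23. No paired analysis was possible because only the ChIP samples have values here and the input samples with the same numbers have none. Depth is unknown, so whether an empty stretch lacks NURF-1 or reads cannot be told apart.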
